A study of Mus musculus with 4 samples.

Results

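The genes described here are 48 factors of ribosome biogenesis and the nucleolus, chosen by name from a list of known components. All 48 were listed, among 25796 genes, in a table of RNA levels in mouse colon epithelial cells. Each gene was represented by its most abundant transcript, the one with the highest mean over the 4 libraries. The libraries were inputs of a methylated RNA immunoprecipitation, that is, total RNA before enrichment with an antibody against N6-methyladenosine (m6A). They formed 2 groups of 2, labelled WT and Ythdf1 KO; Ythdf1 encodes a cytoplasmic protein that binds m6A in mRNA. The cells were loosened from opened, washed mouse colon by shaking in buffer with EDTA, DTT and a ROCK inhibitor, and neither group is labelled with any further treatment. The labels give no strain, sex, age, allele or promoter, and it is not stated if libraries sharing a label are from different mice. All p-values here thus reflect sample-to-sample spread that might be technical. KO 1 and KO 2 stand for the libraries labelled Ythdf1 KO.

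Recovered reads on the most abundant transcripts numbered 21686140 to 30951138 per library. RNA of the targeted gene was higher, not lower, in KO 1 and KO 2: Ythdf1 measured 1088 in WT 1, 775 in WT 2, 1752 in KO 1 and 1737 in KO 2. A level taken over a whole transcript does not check a deletion whose position is unknown, so every direction is given between labelled groups. Colon epithelial markers were abundant, with all 11 listed (Epcam 30387 in WT 1, 29956 in WT 2, 31627 in KO 1 and 33789.8 in KO 2; 2 of the 11 above both WT libraries and 3 below). Leukocyte markers, 13 of 14 listed, summed to 1749 and 1713 in WT and to 983 and 933 in KO 1 and KO 2. Of the 13, 4 lay below WT in both of the latter and 0 above, with Cd4 and Lyz2 at 0 in both. The log2 difference (KO minus WT) was negative for 11 and positive for 2 (Cd3g and Cd79a). Csf1r and Cd8a were highest in KO 1, and Itgam and Cd79a in KO 2. Read counts of these markers were low, with a median of 59.3 over their means. Stromal and vessel markers, 13 of 14 listed, summed to 2615, 4403, 2998 and 1822 in the order WT 1, WT 2, KO 1, KO 2. Of those 13, 4 lay below and 0 above. Over all tested genes, 14.3% lay above both WT libraries and 21.4% below, or 22.7% and 12.8% at a mean of 500 or more. In bulk RNA, fewer cells of a type and less RNA per cell cannot be told apart, and the part of these other cells in the values of the biogenesis genes was not tested.

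Ribosomes are built in the nucleolus, where RNA polymerase I transcribes a long precursor of the ribosomal RNAs. Small nucleolar ribonucleoproteins (snoRNPs) guide chemical modification of that precursor: the box C/D class directs ribose methylation and the box H/ACA class directs pseudouridylation. Large sets of assembly factors then fold and cut the precursor into the small and the large subunit, most of them binding for a limited time and leaving before the subunit is exported. In intestinal epithelium, proliferating crypt cells are known for high ribosome production, and the transcription factor Myc, which binds the E-box CACGTG, is a known activator of many of these genes.

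Sequence upstream of the start of transcription was compared first, because it was not used to choose the genes. RefSeq (GRCm38.p6) windows of 300 bases, 250 before and 50 after the start, were given for 43 of the 48 genes. A gene with several windows counted as holding a motif if any of them did. The E-box CACGTG, which reads the same on either strand, stood in 10 of these 43 genes (23.3%). It stood in 8.09% of all 27025 genes with a window and in 9.87% of the 16382 tested genes with a window. The letters CCGGAAG, a core bound by ETS family factors, were found on either strand in 14 members (32.6%). The share was 9.93% of all genes with a window and 13.7% of the tested ones. CCAAT stood in 34.9% of the members and 41.1% of all genes with a window, and TATAAA in 6.98% and 15.7%, each on either strand. Over 87 other ribosome biogenesis genes with a window, the shares were 17.2% for the E-box, 48.3% for CCGGAAG, 39.1% for CCAAT and 5.75% for TATAAA. A match is a description of letters and not a binding site. The 10 members with an E-box were Imp4, Mybbp1a, Nol11, Nop2, Pes1, Rrn3, Tsr1, Utp18, Utp20 and Wdr43. The median log2 difference between the labelled groups (KO minus WT) was 0.27 over those 10 and 0.11 over the 33 without the motif. The median over all 48 members had an SD of 0.27 between libraries of the same label. Whether the medians with and without the motif differ was not tested. Among the 10, Rrn3 lay above both WT libraries in KO 1 and KO 2 and Utp20 below. Among the 33, 3 lay above and 4 below, beside 14.3% and 21.4% of all genes tested.

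The 250 bases before the start are shown for Rrn3, which holds the E-box more than once, and for the members with the smallest p above (Nolc1) and below (Dkc1) WT. They lie at chr16:13780449-13780698, chr19:46075597-46075846 and chrX:75095604-75095853, all on the plus strand and printed 5′ to 3′. Capitals mark matches to the 4 motifs that lie wholly within the stretch, and no matches overlap. Rrn3 has CACGTG with its first base 215 and 48 bases before the start.
Rrn3: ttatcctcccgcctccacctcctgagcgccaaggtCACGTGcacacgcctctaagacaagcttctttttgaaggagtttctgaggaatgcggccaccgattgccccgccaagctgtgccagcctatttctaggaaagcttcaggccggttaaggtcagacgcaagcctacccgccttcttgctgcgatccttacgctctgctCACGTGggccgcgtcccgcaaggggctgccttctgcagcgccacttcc
Nolc1 has CCGGAAG with its first base 14 bases before the start.
Nolc1: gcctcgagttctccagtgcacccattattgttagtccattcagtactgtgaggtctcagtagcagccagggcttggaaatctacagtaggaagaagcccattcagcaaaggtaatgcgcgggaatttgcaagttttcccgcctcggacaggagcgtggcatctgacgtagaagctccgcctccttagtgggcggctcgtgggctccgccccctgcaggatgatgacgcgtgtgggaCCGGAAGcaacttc
Dkc1 has neither CACGTG nor CCGGAAG, and its capitals are TATAAA read on the opposite strand, 189 bases before the start.
Dkc1: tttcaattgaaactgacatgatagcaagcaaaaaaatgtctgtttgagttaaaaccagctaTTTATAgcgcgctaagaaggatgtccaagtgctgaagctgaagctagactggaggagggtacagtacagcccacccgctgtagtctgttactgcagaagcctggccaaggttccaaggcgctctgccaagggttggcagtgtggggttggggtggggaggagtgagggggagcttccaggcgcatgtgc
Outside these stretches, the window of Rrn3 also holds CCGGAAG, on either strand, once across the start and again after it, and that of Dkc1 holds CCAAT after the start. Rrn3 and Nolc1 thus share CCGGAAG, and of the 3 only Rrn3 holds the E-box.

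No member passed the test between the labelled groups. The test was limma-trend, a linear model whose variance is moderated across genes, on log2(normalised read count + 1), with Benjamini-Hochberg adjustment over the 23116 genes tested and a threshold of 0.05. It called 0 of 48 members (smallest adjusted p = 0.759 by limma-trend) and 0 of all 23116 genes (0%). At an unadjusted p under 0.05 by limma-trend it counted 3 members (6.25%: Dkc1, Polr1d and Nolc1) and 1257 of all genes (5.44%), so the members' share was near the background. On the recovered reads, edgeR's quasi-likelihood test called 0 members. At an unadjusted p under 0.05 it counted 3 members and 1060 of all 23116 genes. DESeq2 called only Dkc1, at a background of 6.22% of all genes, and the authors' deposited table also called only Dkc1, at a background of 4.47% of its 25796 genes (q under 0.05).

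The fitted log2 difference was positive for 28 members and negative for 20, with a median of 0.11 (quartiles -0.20 and 0.40). The median was -0.09 over all genes tested and 0.07 over the 7431 genes of higher read count (mean of 500 or more). The median over the members was not steady: it was 0.14 without WT 2, 0.34 without KO 1, 0.00 without WT 1 and -0.10 without KO 2. In 21 members the sign held whichever library was left out, and in 27 it turned at least once. Both KO libraries lay above both WT libraries for 5 members (10.4%; Polr1a, Polr1c, Rrn3, Nolc1 and Fbl), against 14.3% of all genes. Both lay below for another 5 (10.4%; Polr1d, Nop58, Dkc1, Utp14a and Utp20), against 21.4% of all genes. Among the 30 members with a mean of 500 or more, 5 lay above, where 22.7% of genes at that level did, and 3 below (Polr1d, Nop58 and Utp20), where 12.8% did. The groups overlapped for the other 38 members.

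**Figure D1:**
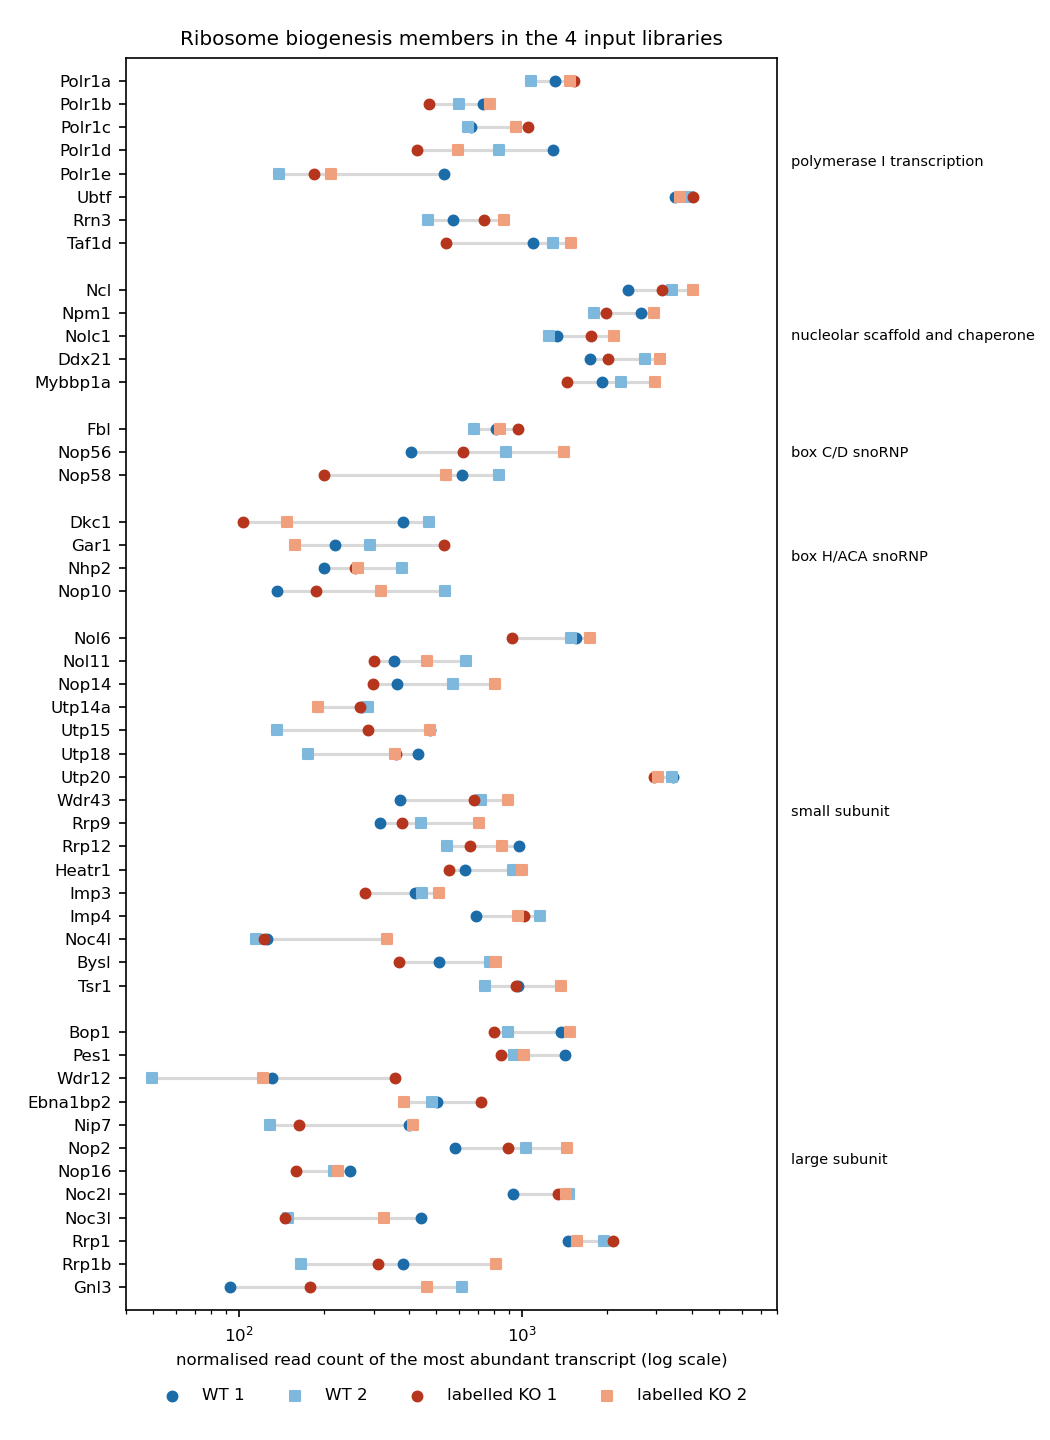
Normalised read counts (log axis) of the most abundant transcript of each of the 48 members, by role, with a point for each of the 4 libraries and a grey line over their range. The points of KO 2 stand furthest right in 22 members and furthest left in 3, and the 2 groups overlap in 38 members.

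**Figure D2:**
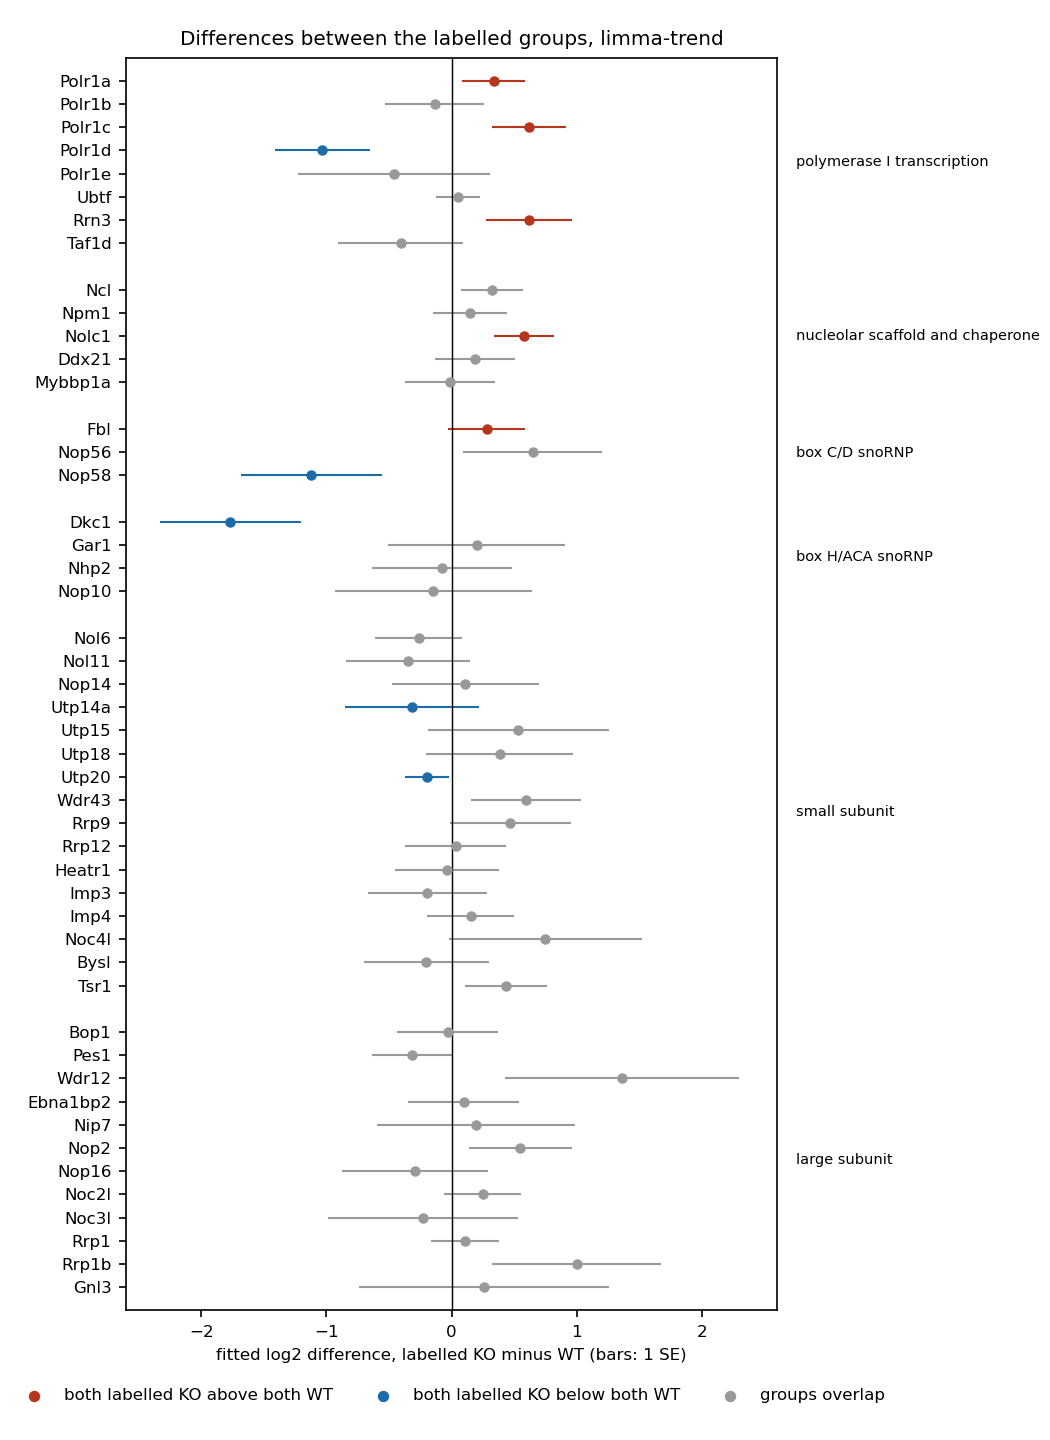
Fitted log2 differences, labelled KO minus WT, for the 48 members by role, with bars of 1 standard error from limma-trend. Red marks the 5 members with both KO libraries above both WT libraries, blue the 5 with both below, and grey the 38 whose groups overlap; Dkc1 stands furthest left at -1.77.

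The polymerase I machinery split in direction, with 3 of 8 genes above both WT libraries, 1 below and a median log2 difference of -0.04. Of these 8, 7 had a mean of 500 or more, where 22.7% of all genes lay above and 12.8% below. Polr1a, the largest subunit of the polymerase (NM_009088.3, mm10 chr6:71909053-71979360, plus strand), measured 1317 in WT 1, 1080.3 in WT 2, 1532 in KO 1 and 1479.8 in KO 2. The group means were 1.26 times apart and the WT libraries 1.22 times. The log2 difference was 0.34 ± 0.25 (SE), or 0.19 to 0.48 with any 1 library left out. The other listed transcript of Polr1a, XM_006505804.2, overlapped between groups, at 975, 715, 856 and 923 in the order WT 1, WT 2, KO 1, KO 2. Summed over transcripts, the log2 difference of Polr1a was 0.24. Polr1c (NM_009085.2, mm10 chr17:46243920-46248045, minus strand) and Polr1d (NM_181730.4, mm10 chr5:147077346-147111361, plus strand) are partners shared by polymerases I and III, and they lay on opposite sides. Polr1c measured 663 in WT 1, 646 in WT 2, 1057 in KO 1 and 958 in KO 2, a log2 difference of 0.62 ± 0.30 (SE). Polr1d measured 1287 in WT 1, 833 in WT 2, 429 in KO 1 and 596 in KO 2, a log2 difference of -1.03 ± 0.38 (SE) with unadjusted p = 0.0338 and adjusted p = 0.759 by limma-trend. For Polr1c the WT libraries lay close together and well under the other pair, whereas for Polr1d WT 1 stood far above WT 2. Without WT 1 the log2 difference of Polr1d was -0.72, and summed over transcripts in all libraries it was -0.83. The other listed transcript of Polr1d, NM_009087.2, measured 942, 684, 408 and 675 in the order WT 1, WT 2, KO 1, KO 2. Its KO 2 value was just under WT 2, and the authors' q for it was 0.466.

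Rrn3 (TIF-IA; NM_001039521.1, mm10 chr16:13780699-13814841, plus strand), which couples the polymerase to its promoter, measured 575 in WT 1, 467 in WT 2, 737 in KO 1 and 864 in KO 2. Both KO libraries were higher than both WT libraries, by 0.62 ± 0.34 (SE) on the log2 scale (limma-trend adjusted p = 0.762). Ubtf, which binds and bends ribosomal DNA, had the highest mean read count of the members (a count that grows with transcript length) and measured 3502 in WT 1, 3902 in WT 2, 4048 in KO 1 and 3640.4 in KO 2. Its 4 values were close and interleaved, and its log2 difference was 0.05 ± 0.18 (SE), with a sign that turned under quantile normalisation (-0.04). Polr1b, the polymerase's other large catalytic subunit, measured 734, 599.7, 472 and 773 in the order WT 1, WT 2, KO 1, KO 2, with KO 1 and KO 2 the lowest and the highest. Taf1d, a subunit of the promoter selectivity factor, measured 1097, 1297, 540.0 and 1499.7 in that order. Polr1e, a further polymerase subunit, measured 532, 139, 184 and 213. For Taf1d the KO libraries were 2.78 times apart and for Polr1e the WT libraries 3.82 times apart, more than the group means differed.

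Nucleolar scaffold and chaperone genes were all highest in KO 2, and 1 of the 5 did not overlap between groups. Nolc1 (NM_001039352.2, mm10 chr19:46075847-46085543, plus strand), a chaperone of snoRNPs, measured 1338 in WT 1, 1246 in WT 2, 1761 in KO 1 and 2115 in KO 2. Its group means were 1292 ± 65.1 (SD, n = 2) for WT against 1938 ± 251 (SD, n = 2) for the labelled KO pair. The log2 difference was 0.58 ± 0.24 (SE), with unadjusted p = 0.0474 and adjusted p = 0.759 by limma-trend, and lay at 0.45 to 0.71 when any 1 library was left out. Ncl (nucleolin), a chaperone of the precursor RNA with the next highest mean read count, measured 2378 in WT 1, 3416 in WT 2, 3145 in KO 1 and 4048 in KO 2. KO 1 lay between the WT libraries, so the groups overlapped, and the log2 difference was 0.32 ± 0.25 (SE), but 0.06 without WT 1 and 0.59 without WT 2. Npm1 (nucleophosmin), a main component of the granular layer, measured 2634, 1800.1, 1982 and 2931 in the order WT 1, WT 2, KO 1, KO 2. Ddx21, an RNA helicase of the nucleolus, measured 1748, 2742, 2021 and 3077 in that order. Mybbp1a, a nucleolar protein that binds Myb, measured 1929, 2256, 1447 and 2954. In Ddx21 both second libraries exceeded both first libraries, and in Mybbp1a KO 1 was the lowest and KO 2 the highest of the 4.

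The core proteins of box C/D snoRNPs did not share a direction. Fbl (fibrillarin; NM_007991.3, mm10 chr7:28169748-28179269, plus strand), the methyltransferase, measured 813 in WT 1, 677 in WT 2, 971 in KO 1 and 837 in KO 2. The KO values were higher by 0.28 ± 0.31 (SE) on the log2 scale, a difference smaller than its standard error, or by 0.15 to 0.41 with any 1 library left out. Nop58 (XM_006496149.2, mm10 chr1:59684951-59711510, plus strand) and Nop56 are paired scaffold proteins of the same particle. Nop58 measured 617 in WT 1, 832 in WT 2, 199.7 in KO 1 and 542 in KO 2, a log2 difference of -1.12 ± 0.57 (SE). Both KO libraries were lower than both WT libraries, but KO 1 alone was far lower, and without it the log2 difference was -0.40. Nop56 measured 406 in WT 1, 881 in WT 2, 620.5 in KO 1 and 1415 in KO 2. Its highest and second lowest values were both in libraries labelled KO and its log2 difference was 0.65 ± 0.55 (SE), or 0.05 to 1.24 with any 1 library left out.

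Among the core proteins of box H/ACA snoRNPs, Dkc1 showed the largest negative difference of the 48 genes. Dkc1 (dyskerin; NM_001030307.2, mm10 chrX:75095854-75109776, plus strand) is the pseudouridine synthase of the particle and is also a part of telomerase. It measured 381 in WT 1, 472 in WT 2, 104 in KO 1 and 148 in KO 2, from 338, 468, 107 and 179 recovered reads. Both KO values were under the lower WT value, and the group means were 427 ± 64.7 (SD, n = 2) for WT against 126 ± 31.3 (SD, n = 2) for the labelled KO pair, a ratio of 0.295. The log2 difference was -1.77 ± 0.56 (SE), with unadjusted p = 0.0185 and adjusted p = 0.759 by limma-trend. It lay at -2.02 to -1.51 when any 1 library was left out. DESeq2 on the recovered reads gave -1.75 with adjusted p = 0.0108, and edgeR's quasi-likelihood test gave -1.74 with adjusted p = 0.815. The authors' deposited table gave -1.76 with q = 0.0181. All 3 listed transcripts of Dkc1 were lower, but the authors' q was 0.102 for XM_006528023.3 and 0.141 for XM_017318488.1. These transcripts share reads. Mpp1, a gene on the opposite strand that overlaps Dkc1, measured 615, 889, 393 and 610.5 in the order WT 1, WT 2, KO 1, KO 2, and whether reads of the pair were told apart by strand is not stated.

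The other H/ACA proteins overlapped between groups. Gar1 measured 219.8, 292, 533 and 159 in the order WT 1, WT 2, KO 1, KO 2. Nhp2 measured 201, 379.6, 259 and 264 in that order, and for Nop10 the values were 136, 536, 188 and 318. Gar1 was highest in KO 1 and lowest in KO 2, and Nop10 was highest in WT 2 and lowest in WT 1. Their log2 differences were 0.20 ± 0.71 (SE), -0.08 ± 0.56 (SE) and -0.14 ± 0.78 (SE), each smaller than its standard error. Whether Dkc1 differed from its partners in the size of its difference was not tested.

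Of the 16 factors of small subunit assembly, 0 lay above both WT libraries and 2 below, and the median log2 difference was 0.07. Utp20, a large scaffold protein of the processome that forms on the precursor (NM_175158.3, mm10 chr10:88746607-88826814, minus strand), measured 3434 in WT 1, 3418 in WT 2, 2946 in KO 1 and 3031 in KO 2. Its replicates were close in both groups and the KO values were lower by a small margin, with a log2 difference of -0.20 ± 0.18 (SE). Utp14a (NM_028276.1, mm10 chrX:48256934-48282449, plus strand), a processome factor, measured 274 in WT 1, 288 in WT 2, 268 in KO 1 and 190.2 in KO 2. KO 1 lay just under the WT values and KO 2 further down, and the log2 difference was -0.31 ± 0.53 (SE), less than its standard error, and -0.07 without KO 2. Noc4l, the nucleolar partner of Nop14 in yeast, had a low mean read count and measured 126 in WT 1, 115 in WT 2, 123 in KO 1 and 336 in KO 2. Only KO 2 stood apart for Noc4l: without it the log2 difference of 0.75 ± 0.77 (SE) was 0.03.

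The other 13 factors of small subunit assembly overlapped between groups, with fitted log2 differences from -0.35 (Nol11) to 0.59 (Wdr43). Wdr43, Utp15, Nol11 and Heatr1 belong to the complex that joins transcription to early processing. In the order WT 1, WT 2, KO 1, KO 2, Wdr43 measured 371, 718, 678 and 895. Utp15 measured 476, 136, 287 and 476 in that order. WT 1 was thus the lowest library for Wdr43 and WT 2 for Utp15. Nol11 measured 355, 635, 301 and 462, and its highest value was in WT 2. Heatr1, a long scaffold protein, measured 631, 931, 556 and 1005. KO 1 was lowest for both Nol11 and Heatr1, so the 4 genes of this complex had no common order of libraries. Utp18, of another early complex, measured 429, 176, 359.7 and 358 in the order WT 1, WT 2, KO 1, KO 2, with the KO libraries close together between the WT libraries.

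The remaining small subunit factors are given in the same order of libraries. Rrp9, a protein of the snoRNP that guides early cleavage, measured 317, 441, 379 and 707, and its KO 2 value stood above the other 3. Imp3 and Imp4 pair that snoRNP with the precursor. Imp3 measured 420.4, 446, 279 and 513. Imp4 measured 692, 1158, 1019.9 and 970.3. Imp3 was lowest in KO 1 and highest in KO 2, whereas for Imp4 the KO libraries lay between the WT libraries. Nol6, a processome protein, measured 1555, 1495, 928 and 1744. Nop14, a further processome protein, measured 362, 573, 299.6 and 808. Both were lowest in KO 1 and highest in KO 2. Rrp12, Bysl and Tsr1 act late in maturation. Rrp12 measured 982, 544, 657 and 854, Bysl measured 509, 775, 368 and 811, and the values of Tsr1 were 974, 745, 958 and 1383. Of these late factors, Bysl and Tsr1 were highest in KO 2 and Rrp12 in WT 1.

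By the most abundant transcript, none of the 12 factors of large subunit assembly separated the groups, and their median log2 difference was 0.15. Pes1, Bop1 and Wdr12 form a complex needed to process the large subunit's RNA. Wdr12 (NM_001199060.1, mm10 chr1:60076868-60098500, minus strand) had the lowest mean read count of the members and measured 131 in WT 1, 49.5 in WT 2, 356 in KO 1 and 122 in KO 2, from 116, 49, 367 and 148 recovered reads. Its log2 difference of 1.36 ± 0.93 (SE), the largest positive value among the members, was not larger than the spread: the WT libraries were 2.64 times and the KO libraries 2.91 times apart (limma-trend adjusted p = 0.812). In the order WT 1, WT 2, KO 1, KO 2, Pes1 measured 1426, 938, 845 and 1022. Bop1 measured 1384, 896, 798 and 1487 in that order. Both were lowest in KO 1, where Wdr12 was highest.

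Gnl3 (nucleostemin), a nucleolar GTPase of proliferating cells, measured 93.6 in WT 1, 617 in WT 2, 178 in KO 1 and 464 in KO 2. Its WT libraries were 6.59 times apart, the widest gap within a group of any member. Rrp1b, a nucleolar protein related to Rrp1, measured 379.8 in WT 1, 166 in WT 2, 310.2 in KO 1 and 814 in KO 2. Its log2 difference of 1.00 ± 0.68 (SE) rested on KO 2, and without that library it was 0.31. Another listed transcript of Rrp1b, XM_006524971.1, did not overlap between groups, at 213, 166, 309 and 682 in the order WT 1, WT 2, KO 1, KO 2. Rrp1 itself measured 1463, 1949.6, 2113 and 1568 in the order WT 1, WT 2, KO 1, KO 2, and the remaining genes follow in that order. Nop2, an RNA cytosine methyltransferase, measured 580.5, 1039, 894 and 1445. The assembly factor Nop16 measured 248, 217, 159 and 225. For Nop2 both second libraries exceeded both first libraries, and for Nop16 KO 1 was the lowest. Noc2l and Noc3l are related assembly factors. Noc2l measured 932, 1468, 1349.5 and 1431. Noc3l measured 439.6, 149, 146 and 327. WT 1 was the lowest library for Noc2l and the highest for Noc3l. Ebna1bp2, an early factor, measured 503, 483, 721 and 385. Nip7, also an assembly factor, measured 399, 129, 164 and 412 by a non-coding entry, NR_028367.1. Its coding entry NM_025391.2 measured 122, 129, 112 and 412. No common order of libraries ran through these genes: KO 1 was highest for Ebna1bp2 and Rrp1, KO 2 for Nop2, Rrp1b and Nip7, and WT libraries for the rest.

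Across the 48 genes, single libraries of the same label lay further apart than the group means did. Means of 2 libraries vary less than single libraries, so gaps within and between groups are unlike measures. The median size of the log2 difference was 0.55 between WT 1 and WT 2, 0.61 between KO 1 and KO 2, and 0.29 between the group means. Among the 7431 genes of higher read count, these medians were 0.28, 0.32 and 0.23. Over the 30 members at that level they were 0.48, 0.50 and 0.25. Gaps over 2 times were found in 10 members (20.8%) within WT, 13 (27.1%) within the libraries labelled KO and 4 (8.33%) between groups. The shares were 40.8%, 42.5% and 36.6% of all genes tested, and 4.48%, 7.51% and 2.01% of the genes of higher read count. Of the 30 members at that level, 1, 6 and 2 had such gaps. The gap between groups exceeded both gaps within groups in 8 of 48 members and 5296 of 23116 genes tested. At the higher read count it did so in 7 of 30 members and 1704 of 7431 genes. The precision is limited by having 2 libraries a group; the members had from 49 to 4894 recovered reads a library.

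Most of the gap between the libraries labelled KO ran one way. KO 2 exceeded KO 1 in 37 of 48 members (77.1%), with a median log2 gap of 0.52, against 53.4% of the genes of higher read count (median 0.04) and 48.5% of all tested genes. KO 2 was over 2 times KO 1 in 11 members, while the opposite held in 2, Wdr12 and Gar1. WT 2 exceeded WT 1 in 24 members of 48. Measured as the log2 distance from each gene's own mean over the 4 libraries, the members' medians were -0.02 in WT 1, 0.10 in WT 2, -0.21 in KO 1 and 0.32 in KO 2. The same medians over the genes of higher read count lay between -0.04 and 0.07. KO 2 was the highest library for 22 members and the lowest for 3, whereas KO 1 was the highest for 8 and the lowest for 17. By role, KO 2 exceeded KO 1 in 5 of 8 polymerase I genes, 5 of 5 scaffold genes, 2 of 3 box C/D genes, 3 of 4 box H/ACA genes, 13 of 16 small subunit genes and 9 of 12 large subunit genes. The box H/ACA genes differed in their medians of the same distance, -0.25 in KO 1 and -0.33 in KO 2, with Gar1 far lower in KO 2.

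**Figure D3:**
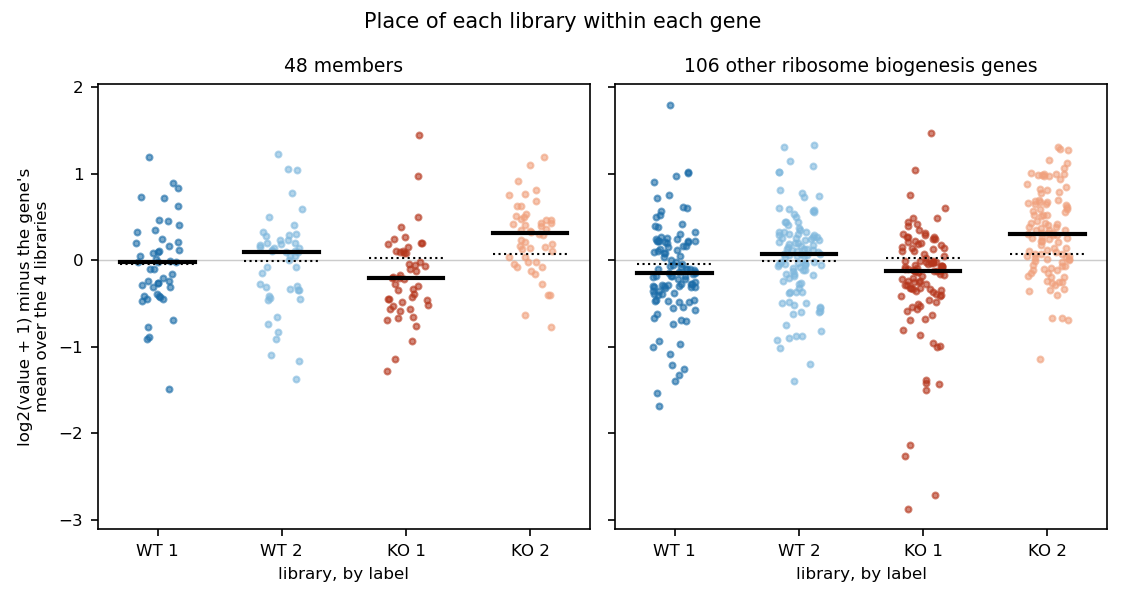
Distance of each library's log2(value + 1) from the gene's own mean over the 4 libraries, for the 48 members (left) and 106 other ribosome biogenesis genes (right), with a point for each gene, a solid line at the list's median and a dotted line at the median of genes whose mean was 500 or more. In both lists the solid line is highest in KO 2, at 0.32 and 0.31, and below 0 in KO 1, at -0.21 and -0.12.

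Levels of other genes in these libraries are given beside this gap. The summed level of the 48 members was 42393, 45191, 40671 and 53078 in WT 1, WT 2, KO 1 and KO 2, or 0.173%, 0.182%, 0.162% and 0.207% of recovered reads. KO 2 was also the deepest library. The 15 markers of cycling cells summed to 17511, 22103, 22767 and 26061 in that order, with 4 above both WT libraries and 2 below. Among all tested genes 14.3% lay above and 21.4% below, or 22.7% and 12.8% at a mean of 500 or more. KO 2 exceeded KO 1 in 8 of these 15, against 37 of the 48 members. The 11 epithelial markers summed to 994491, 942330.5, 1052442 and 794583, an order set by Muc2, and the other 10 summed to 387468, 426964, 368579 and 392429.9. Of the 11, 6 (Epcam, Cdh1, Krt8, Krt19, Vil1 and Cdx1) were highest in KO 2 and 3 (Cdx2, Car1 and Muc2) were lowest there. Muc2, the main mucin of goblet cells, measured 607023, 515367, 683863 and 402153. Car1, a carbonic anhydrase of surface colonocytes, measured 102727, 116128, 73552 and 42374. Myc measured 630.1, 904, 878 and 1328, highest in KO 2. Of the other genes listed with it, Mycn measured 385, 68.7, 36.8 and 235, highest in WT 1. Mycl measured 592, 662, 950 and 768, highest in KO 1, and Max 3447, 2322, 2928 and 3688, highest in KO 2. KO 2 was the highest library for 2591 of the 7431 genes of higher read count. The part of depth, cycling cells or mature cells in the members' values was not tested.

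The members' 120 listed transcripts gave the same direction within nearly every gene. There were 19 members with 1 listed transcript and 29 with several, up to 15 for Ubtf. By the ratio of group means, every transcript was higher in 16 of the 29 members and lower in 11, and directions were mixed in 2, Ubtf and Utp18. In 1 of the 29, Gnl3, that direction (lower) was opposite to the sign of the fitted log2 difference (0.26), which averages log2 values. Overlap between groups could differ by transcript. Noc2l overlapped by its most abundant transcript, but XR_390775.3 measured 523, 1013, 1131 and 1341 in the order WT 1, WT 2, KO 1, KO 2. Noc3l likewise overlapped, but XR_386499.3 measured 409, 280, 146 and 205 in that order. For Polr1a the reverse held. Summed over transcripts, 7 members lay above both WT libraries and 6 below, and no share over all genes was taken for the sums. Isoforms share reads, so they are not separate measurements. Another listed gene overlapped 19 members, on the opposite strand in 15, and small nucleolar RNAs (snoRNAs) lay within the span of 3, on the same strand. The snoRNAs were Snora75 in Ncl, Snord70 in Nop58 and Snord53 in Wdr43. Snora75 measured 0, 63.6, 0 and 10.8 in WT 1, WT 2, KO 1 and KO 2, Snord70 was above 0 only in WT 2 (111) and Snord53 only in KO 2 (52.1). The 3 snoRNAs were thus too sparse to set beside their host genes.

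The same comparison over 106 other genes of ribosome biogenesis, listed by known function, gave 61 positive and 45 negative values, with a median log2 difference of 0.13. Leaving out 1 library put that value at 0.02 (WT 1), 0.20 (WT 2), 0.31 (KO 1) or -0.07 (KO 2), so the sign turned when KO 2 was left out. Both KO libraries lay above both WT libraries in 18 (17.0%) and below in 12 (11.3%), beside 14.3% and 21.4% of all genes. limma-trend called 0 of them, and 5 had an unadjusted p under 0.05 by limma-trend, beside 5.44% of all genes. DESeq2 called 3 (Pno1, Rrs1 and Rpl7l1), beside 6.22% of all genes. The authors' deposited table called the same 3, beside 4.47% of its genes. KO 2 exceeded KO 1 in 78 of these 106 (73.6%; median log2 gap 0.50). WT 2 exceeded WT 1 in 66 (62.3%). KO 2 was thus the higher KO library for most genes of this list as well.

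Pno1, a late factor of the small subunit, measured 250.2 in WT 1, 213 in WT 2, 479.9 in KO 1 and 974 in KO 2, a log2 difference of 1.56 ± 0.51 (SE) (limma-trend adjusted p = 0.759). Rrs1, a factor of large subunit assembly, measured 248 in WT 1, 474 in WT 2, 806 in KO 1 and 1143 in KO 2, a log2 difference of 1.48 ± 0.46 (SE). In both genes the KO libraries were above both WT libraries, and the difference of the group means exceeded the gap within either pair. Rpl7l1, a protein like the ribosomal protein Rpl7, measured 383 in WT 1, 391 in WT 2, 686 in KO 1 and 1026 in KO 2, with close WT values. Rrp36, Pwp2 and Utp11l are processome factors. In the order WT 1, WT 2, KO 1, KO 2, Rrp36 measured 93.6, 243, 561 and 430.1. Pwp2 measured 287, 273, 386 and 1016 in that order. Utp11l measured 281, 198, 434 and 616. All were higher in both KO libraries, Pwp2 mainly in KO 2.

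On the lower side, Brix1, a large subunit factor, measured 508 in WT 1, 221 in WT 2, 21.3 in KO 1 and 182 in KO 2. KO 1, at 22 recovered reads, was far the lowest, and the log2 difference was -2.40 ± 1.15 (SE) with it and without it -0.88. Ltv1, a factor of late small subunit maturation, measured 355, 527, 94 and 209 in the order WT 1, WT 2, KO 1, KO 2. Shq1, which chaperones Dkc1 during H/ACA assembly, measured 162, 277, 125 and 61.2 in that order. Shq1 and Dkc1 were both lower in both KO libraries, with log2 differences of -1.27 ± 0.79 (SE) and -1.77 ± 0.56 (SE). Over the 9 listed genes of snoRNP assembly, Shq1 among them, 7 differences were positive and 2 negative, with a median of 0.36. Naf1, also among the 9, stood at 0.58 in the authors' deposited table. Whether Shq1 and Dkc1 changed together was not tested. The helicase Ddx10 measured 508, 596, 126 and 431, lowest in KO 1. The helicase Ddx31 measured 650.4, 315, 265 and 200.2, lowest in KO 2.

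**Figure D4:**
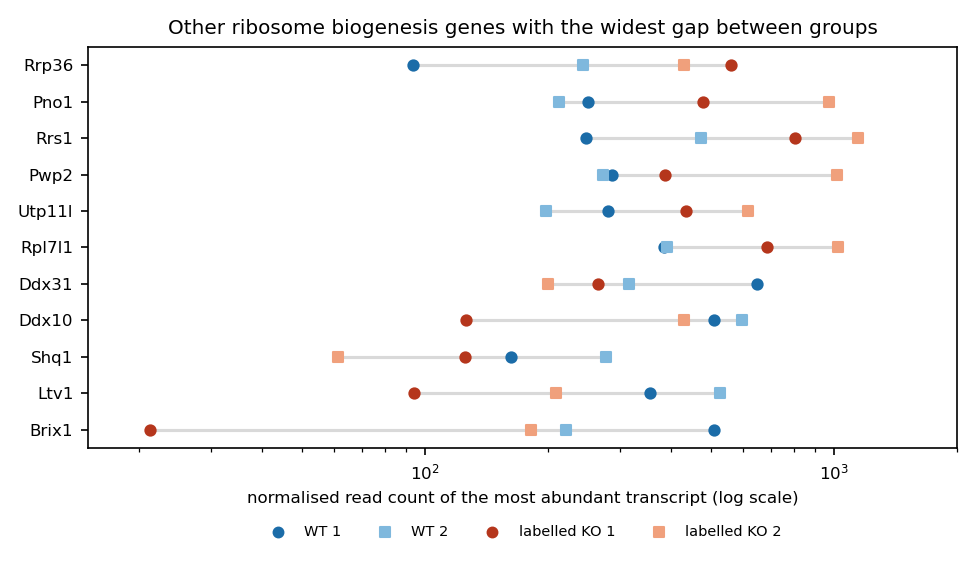
Normalised read counts (log axis) of the most abundant transcript of 11 other ribosome biogenesis genes, with a point for each of the 4 libraries and a grey line over their range. The upper 6 genes have both KO libraries above both WT libraries and the lower 5 have both below; within the KO pair the 2 libraries are often far apart, as in Brix1 and Pwp2.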

How the data were processed

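RNA levels were compared in 4 input libraries, 2 per labelled genotype. The submitters' processing notes name the build mm10 and, without role or order, deepTools 3.3.0, HOMER 4.10, MACS2 2.1.0, SAMtools 1.3.1, Bowtie2 2.2.5 and CASAVA 1.8. How reads were counted, whether strand was used, and which test the authors ran was not stated. The authors' deposited signal is a normalised read count for each transcript: all values (100%) were whole multiples, within 0.001, of a value specific to the library, so reads could be recovered. A value of 1.13, 1.01, 0.969 and 0.827 stood for 1 read in WT 1, WT 2, KO 1 and KO 2. Columns of the authors' log2 fold change, p-value and q-value stand beside these, per the file headers.

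Each gene was represented by its most abundant transcript. For Nip7, Taf1d, Nop56, Rrp9 and Wdr43 that transcript was a non-coding entry (NR or XR). Values carry no transcript length, so levels of different genes are ranked only as read counts, for the naming rule, and not as amounts of RNA. Tested genes (23116, all members included) needed values of 1 or more in 2 or more libraries. The fit was limma-trend (robust eBayes; limma 3.58.1, R 4.3.3) on log2(value + 1) with genotype label as its term; such differences understate the change of low genes. On recovered reads, edgeR 4.0.16 and DESeq2 1.42.0 were run as alternatives, beside other filters, scalings, isoform sums and fits without 1 library. The 48 members and the other lists were chosen with earlier results of these data known. By rule, every library's value was given for members whose groups did not overlap, with an unadjusted p under 0.05, a q under 0.05 in the authors' table, or among the 2 highest or 2 lowest means. Other biogenesis genes named were up to 5 above and 5 below WT with the largest differences at a mean of at least 100, and those with the authors' q under 0.05. Values of the remaining members were added afterwards. Of the 106 other genes, 99 matched by symbol, 4 by gene identifier and 3 by an older symbol. Fits were tested on simulated data. Same-numbered libraries did not deviate together (r = 0.0225 over 7431 genes), so numbers were not taken as pairs.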

Additional observations from a re-analysis of the deposited data

How the results depend on the processing

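With 2 libraries a group the errors are wide, and low counts, as for Wdr12, add counting error. The replicate block, which takes same-numbered libraries as pairs, called 0 genes and 0 members. At an unadjusted p under 0.05 it counted 2 members and 1760 of all 23116 genes. The members' median log2 difference was 0.11. Quantile normalisation, a pseudocount of 10, no filter, sums over transcripts, a mean of at least 500 and edgeR on recovered reads also called 0 members and 0 genes. Without a variance trend limma called 524 genes and 0 members, and DESeq2 called 1438 genes and 1 member, Dkc1 (log2 difference -1.75); the cause was not tested. Leaving out 1 library gave 0 to 36 genes called and 0 members; with 3 libraries the remaining lone library is assumed to vary like the other group. By the looser criterion that 3 libraries allow, 10 to 25 members lay above WT and 7 to 18 below. No share over all genes is given for these counts, so whether the members differed from other genes there was not tested. A mean of at least 500 left 30 members, 3 of them below both WT libraries. The sign of the difference turned in 4 members under quantile normalisation, 4 under edgeR and 5 under DESeq2. For Ubtf the difference was -0.036 under quantile normalisation and -0.024 to 0.132 without 1 library. Quantile normalisation moved the median of all genes from -0.09 to 0.00066 and that of the members to 0.10.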
